A study of Mus musculus with 25 samples.

Results

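Mitochondrial ribosomal proteins were followed through all 156 probe sets whose platform symbol is Mrpl or Mrps followed by a number, out of 45101 probe sets on the array. They stand for 76 of 18194 named genes, 47 with a large subunit symbol (Mrpl) and 29 with a small subunit symbol (Mrps). Unless stated, the subunit of a gene is read from its symbol alone, which need not be where its protein sits. All 76 genes passed the filter on low values, which kept 14428 genes in all. Another 4 probe sets that carry such a symbol together with that of another gene were left out (Mrpl53 with Ccdc142, Mrpl30 with Gm6238, Mrps34 with Nme3).

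The cells were 3T3-L1 adipocytes, a mouse line whose preadipocytes turn into fat cells in culture. Per the labels, the treated cells received CLA and the control cells LA, which in adipocyte work usually stand for conjugated linoleic acid and linoleic acid. Neither dose nor isomer is stated in the labels. The 4 h groups had 2 CLA and 3 LA arrays. The 8 h groups had 3 of each, the 12 h groups 4 of each and the 24 h groups 3 of each, so every time had LA arrays of its own, and arrays were labelled as biological replicates of 1 cell line. The design asks which transcripts differ between CLA and LA at each time.

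Mitochondria keep a ribosome of their own, which translates only the few proteins encoded by mitochondrial DNA, subunits of the respiratory chain and ATP synthase. Its RNAs come from mitochondrial DNA, whereas all its proteins are encoded in the nucleus, made in the cytosol and imported. The large subunit forms peptide bonds and releases the new chain at the inner membrane, and the small subunit reads the messenger RNA. Some of the proteins have bacterial counterparts and others exist only in mitochondria, and adipocytes gain mitochondria as they differentiate.

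The arrays fell into 5 sets by clustering on all genes without use of the treatment. These sets are named A to E here, and the labels do not name them. Of the first principal component (28.7% of all variance) 96.8% lay between the sets, but they were built from the same values. The tests below compare CLA with LA with the array set as a term, so their standard errors leave out the spread between sets. Differences are log2 of CLA minus LA on the log2(intensity + offset) scale, given ± their standard error, and a gene is said to have fallen or risen where limma's adjusted p was under 0.05. Mean intensities ran from 72.62 to 149.2 over the 25 arrays, and the ratio of the actin 3′ to 5′ probes was 8.113 and 5.674 on the highest arrays (LA at 4 h and LA at 12 h, replicate 1 each) and between 1.426 and 3.32 on the others. The 8 adipocyte markers measured were above the array median on at least some arrays of every group.

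Most mitochondrial ribosomal protein transcripts lay lower under CLA from 8 h on, by small amounts and in both subunits, except that on the values as deposited 37 of 76 were lower at 8 h. The 4 h median difference over the 76 genes was 0.01, and the medians of the 3 later times were -0.24 (8 h), -0.10 (12 h) and -0.27 (24 h), while those over all genes tested were 0.01, -0.03, 0.00 and 0.01. At 4 h 0 of 76 genes fell (0.0139% of all genes did), at 8 h 3 fell (0.561% of all genes), at 12 h 5 fell (2.4% of all genes) and at 24 h 10 fell (3.72% of all genes). The members' shares were 3.95%, 6.58% and 13.2% at 8, 12 and 24 h. No member rose at any time, against 0.00693%, 1.25%, 2.29% and 0.88% of all genes. On the higher side 2 members had an unadjusted p under 0.05 at 12 h (9.25% of all genes did) and 2 at 24 h (7.11% of all genes). The fit without array sets called 0 members at any time, and of all genes 0.00693% or fewer as lower. With the replicate number as a block 0 members passed too, against 0.00693%, 0.0693%, 0.104% and 0.166% of all genes lower at the 4 times. The unadjusted p at 24 h was under 0.05 on the lower side for 7 members without the sets (2.68% of all genes) and for 16 with the block (5.56% of all genes). In these bulk samples fewer adipocytes and less RNA of a gene per adipocyte cannot be told apart.

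**Figure D1:**
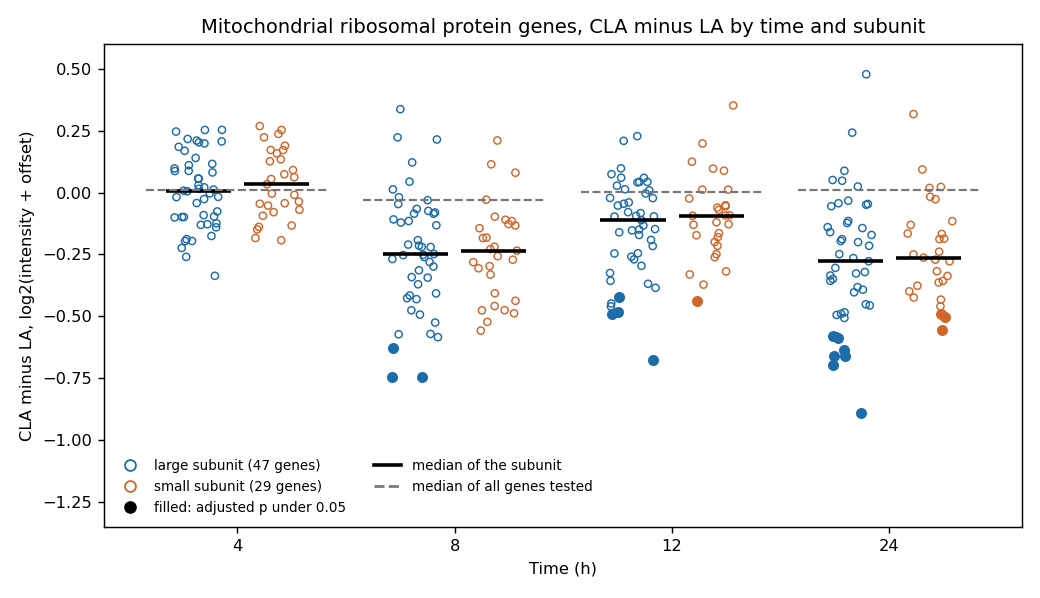
Difference between CLA and LA (log2, vertical axis) for each of the 76 genes at 4, 8, 12 and 24 h, with the large subunit in blue and the small in orange, filled where the adjusted p was under 0.05. Bars are subunit medians and dashed lines the median of all genes. The 4 h points lie around 0 and the 24 h medians at -0.28 and -0.26.

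The promoters of these genes are shown for members that fell at 24 h, since many members lay on the same side of 0. Promoters from RefSeq (build GRCm38.p6) were found for 67 of the 76 genes and searched on both strands over 300 bases, 250 before and 50 after the start site. The ETS core CCGGAAG, read by GABP, was in 37.3% of the members' promoters and in 12.9% of those of 17492 coding genes. The YY1 core AAGATGGCG was in 11.9% against 2.14%, and the NRF1 core in 4.48% against 1.47%. None of the 3 motifs contains another. At least 1 of them was in 34 of 67 members (50.7%, against 15.7% of coding genes). Of the 10 members that fell at 24 h, 7 had a promoter in the table and 2 of these held a motif. Mrpl34 had the ETS core at positions -37 to -31 from its start site. Mrpl37 had the YY1 core at 27 to 35 past its start site, outside the stretch shown. The 250 bases before the start are given for Mrpl34 (chr8:71464676-71464925, plus strand), which fell at 3 times, for Mrpl37 (chr4:107066867-107067116, minus strand), which fell at 24 h, and for Mrps7 (chr11:115603890-115604139, plus strand), a small subunit member that fell at 24 h, with the searched letters in capitals.
Mrpl34: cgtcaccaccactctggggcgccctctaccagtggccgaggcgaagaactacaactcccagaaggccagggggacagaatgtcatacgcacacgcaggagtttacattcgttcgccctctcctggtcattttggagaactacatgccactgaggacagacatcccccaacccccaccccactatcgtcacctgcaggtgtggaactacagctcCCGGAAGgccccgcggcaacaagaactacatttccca
Mrpl37: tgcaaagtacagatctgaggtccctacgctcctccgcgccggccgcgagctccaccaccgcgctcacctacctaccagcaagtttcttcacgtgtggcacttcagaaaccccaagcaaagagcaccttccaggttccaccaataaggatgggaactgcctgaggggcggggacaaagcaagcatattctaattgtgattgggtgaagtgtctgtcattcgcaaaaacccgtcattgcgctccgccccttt
Mrps7: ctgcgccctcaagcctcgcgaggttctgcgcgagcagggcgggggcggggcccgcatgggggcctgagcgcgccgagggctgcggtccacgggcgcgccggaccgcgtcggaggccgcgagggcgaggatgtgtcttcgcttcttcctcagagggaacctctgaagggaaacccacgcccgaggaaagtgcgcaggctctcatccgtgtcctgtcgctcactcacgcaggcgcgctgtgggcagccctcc
Capitals occur in Mrpl34 alone among these 3 stretches. A match describes letters only, and no binding was measured.

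At 4 h the test told CLA from LA for 0 members. The smallest adjusted p was 0.524, and 0 of 76 genes had an unadjusted p under 0.05, while 4.94% of all genes did on the lower and 5.25% on the higher side. All CLA arrays lay below all LA arrays in 2 of the 76 genes (2.63%, against 5.38% of all genes). They all lay above in another 2 (2.63%, against 5.67% of all genes). Differences ran from -0.34 ± 0.19 for Mrpl55 to 0.27 ± 0.15 for Mrps18b, and 36 of 76 lay below 0 (47.4%, against 48.8% of all genes). This comparison rests on 2 CLA arrays and has a median standard error of 0.161 for the members, against 0.332 without the sets. LA replicate 1, the array of highest actin ratio, had no CLA partner at 4 h in its set A.

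At 8 h 3 large subunit members fell, and 67 of 76 differences lay below 0 (88.2%, against 52.7% of all genes). Mrpl49, a protein found only in mitochondrial ribosomes, had intensities of 160, 213.9 and 158.5 on the CLA arrays and 281.7, 313.6 and 284.7 on the LA arrays. All CLA arrays lay below all LA arrays. Its difference was -0.75 ± 0.15 (adjusted p = 0.0262). Mrpl34, the counterpart of a small bacterial large-subunit protein, had intensities of 297.9, 346.4 and 286.4 on the CLA arrays and 497.4, 482.5 and 896.8 on the LA arrays, again without overlap. Its difference was -0.63 ± 0.14 (adjusted p = 0.0413). Mrpl18, of the bacterial L18 family that binds 5S rRNA, had intensities of 358.4, 415.1 and 256.6 on the CLA arrays and 619.5, 710.6 and 353.4 on the LA arrays. Here the groups overlapped through LA replicate 3, which belongs to the dim set C. Its difference was -0.74 ± 0.18 (adjusted p = 0.047). The small subunit had 0 calls, with Mrps12, which takes part in accurate decoding, at -0.56 ± 0.15 (adjusted p = 0.0799). In 21 of the 76 genes all CLA arrays lay below all LA arrays (27.6%, against 7.15% of all genes), and in 1 all lay above (5.07% of all genes). The count of 3 lay between 0 and 4 when 1 array was left out, and was 0 without LA replicate 3 or any 1 CLA array of 8 h.

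At 8 h array set and treatment were unevenly mixed, since CLA replicate 3 and LA replicate 3 had no partner in their sets. The median difference was -0.24 with the sets and -0.41 without them. On the values as deposited, with no normalisation, it was 0.0074, beside a median over all genes of 0.18, which puts the members at -0.17 relative to all genes. Within set A the median of the members was -0.15 (all genes -0.04) and within set B -0.25 (all genes -0.05), each from 1 CLA and 1 LA array.

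At 12 h 4 large subunit members and 1 small subunit member fell, and 57 of 76 differences lay below 0 (75%, against 49.9% of all genes). Mrpl18 had intensities of 514.2, 351.9, 263.6 and 198.8 on the CLA arrays and 578.6, 700.3, 371 and 411.5 on the LA arrays. The groups overlapped, but in each array set the CLA array was the lower one. The difference was -0.67 ± 0.15 (adjusted p = 0.0185). Mrpl15, the counterpart of a bacterial protein of the large subunit, had intensities of 702.1, 498.5, 518.5 and 715.7 on the CLA arrays and 831.5, 806.4, 723 and 868.6 on the LA arrays. All CLA arrays were below all LA arrays. The difference was -0.42 ± 0.11 (adjusted p = 0.0377). Mrpl34 fell by 0.49 ± 0.12 (adjusted p = 0.0311) and Mrpl49 by 0.48 ± 0.13 (adjusted p = 0.0432). Mrps34, a small subunit protein found only in mitochondria, had intensities of 449.4, 432.2, 411 and 628.3 on the CLA arrays and 520.2, 623, 534.2 and 977.3 on the LA arrays. Its groups overlapped only through CLA replicate 4, from the dim set C, and its difference was -0.44 ± 0.11 (adjusted p = 0.0379). The count of 5 ran from 0 to 6 when 1 array was left out, and was 0 without replicate 2 of either group, LA replicate 4 or CLA replicate 3 of 12 h.

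The 12 h shift differed between the 4 pairs of arrays. The median of the members was -0.31 in set B, -0.15 in set C, -0.03 in set D and 0.01 in set E, while that of all genes lay between -0.03 and 0.01. The CLA array was lower for 68, 52, 42 and 36 of the 76 genes in these sets. Set E holds the LA 12 h array of the second highest actin ratio, 5.674, beside a CLA array at 2.825. Without the 2 arrays of highest actin ratio the 12 h median was -0.16, with 5 members called as lower (3.15% of all genes). The part of RNA quality in the 12 h values was not tested beyond this. Lower in CLA in all 4 sets were 22 of the 76 genes (28.9%, against 12.5% of all genes).

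**Figure D2:**
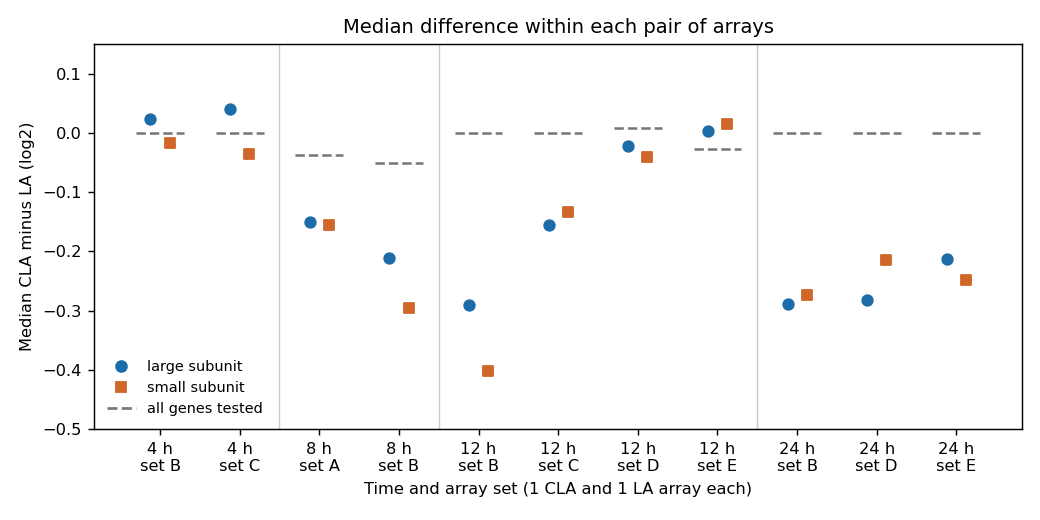
Median difference between the CLA and LA array (log2, vertical axis) within each array set that holds both at a time, for the large subunit (blue circles), the small subunit (orange squares) and all genes (dashed). All 24 h pairs lie between -0.2 and -0.3 for both subunits, while the 12 h pairs run from -0.40 in set B to 0.02 in set E for the small subunit.

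At 24 h 7 large subunit and 3 small subunit members fell, and 66 of 76 differences lay below 0 (86.8%, against 48.9% of all genes). The largest was that of Mrpl12, the stalk protein that contacts translation factors and has also been reported to bind the mitochondrial RNA polymerase. It had intensities of 581.5, 814.2 and 367.5 on the CLA arrays and 846.3, 1118 and 1171 on the LA arrays. All CLA arrays lay below all LA arrays, with CLA replicate 3 far below the others. The difference was -0.89 ± 0.22 (adjusted p = 0.0324), a level under CLA of 0.54 times that under LA, and -0.57 (adjusted p = 0.157) without CLA 24 h replicate 3.

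Mrpl15 had the smallest adjusted p of the members. Its intensities were 600.7, 489.6 and 457.7 on the CLA arrays and 786, 851.6 and 798.3 on the LA arrays, with a clear gap between the groups. The difference was -0.66 ± 0.13 (adjusted p = 0.00795), or 0.632 times the LA level. Its probe set is of a type whose probes can bind other transcripts too. Of its 7 probe sets kept, 5 fell when every probe set was tested by itself, and the other 2, both dim, were also below 0. Mrpl34 had intensities of 257, 362.8 and 287.6 on the CLA arrays and 392.4, 564.1 and 457.4 on the LA arrays, also without overlap. Its difference of -0.64 ± 0.14 (adjusted p = 0.0171) made it the only member that fell at 8, 12 and 24 h.

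Mrpl46 and Mrpl37, both specific to mitochondrial ribosomes, fell as well. Mrpl46 had intensities of 168.5, 117.8 and 130.4 on the CLA arrays and 205.7, 251.4 and 214.1 on the LA arrays, and a difference of -0.69 ± 0.16 (adjusted p = 0.0233). Mrpl37 had intensities of 47.23, 84.49 and 55.75 on the CLA arrays and 66.63, 137.6 and 83.53 on the LA arrays. The groups of Mrpl37 overlapped, since replicate 2 was high in both, but each pair had CLA lower, and the difference was -0.59 ± 0.13 (adjusted p = 0.0169). Mrpl20, whose bacterial counterpart acts early in assembly of the large subunit, had intensities of 433.5, 432 and 263.4 on the CLA arrays and 651.1, 597.4 and 502 on the LA arrays. Its groups did not overlap, and its difference was -0.66 ± 0.15 (adjusted p = 0.0236). Mrpl45, which sits at the exit of the new chain and holds the ribosome to the inner membrane, fell by 0.58 ± 0.15 (adjusted p = 0.0394) without overlap; it was named after its values were seen.

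In the small subunit Mrps35, Mrps34 and Mrps7 fell. Mrps35, found only in mitochondrial ribosomes, had intensities of 400, 421.5 and 294.7 on the CLA arrays and 514.5, 629.5 and 487.6 on the LA arrays, and a difference of -0.55 ± 0.13 (adjusted p = 0.0244). Mrps34 had intensities of 481, 444.2 and 431.1 on the CLA arrays and 616.7, 671.4 and 636.6 on the LA arrays, and a difference of -0.50 ± 0.13 (adjusted p = 0.0375). Neither gene had overlapping groups. Mrps7, counterpart of a bacterial protein that helps to fold the small subunit RNA, had intensities of 206, 302.1 and 229.3 on the CLA arrays and 292.2, 410.1 and 331.7 on the LA arrays. These groups overlapped, each pair had CLA lower, and the difference was -0.49 ± 0.13 (adjusted p = 0.0431).

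**Figure D3:**
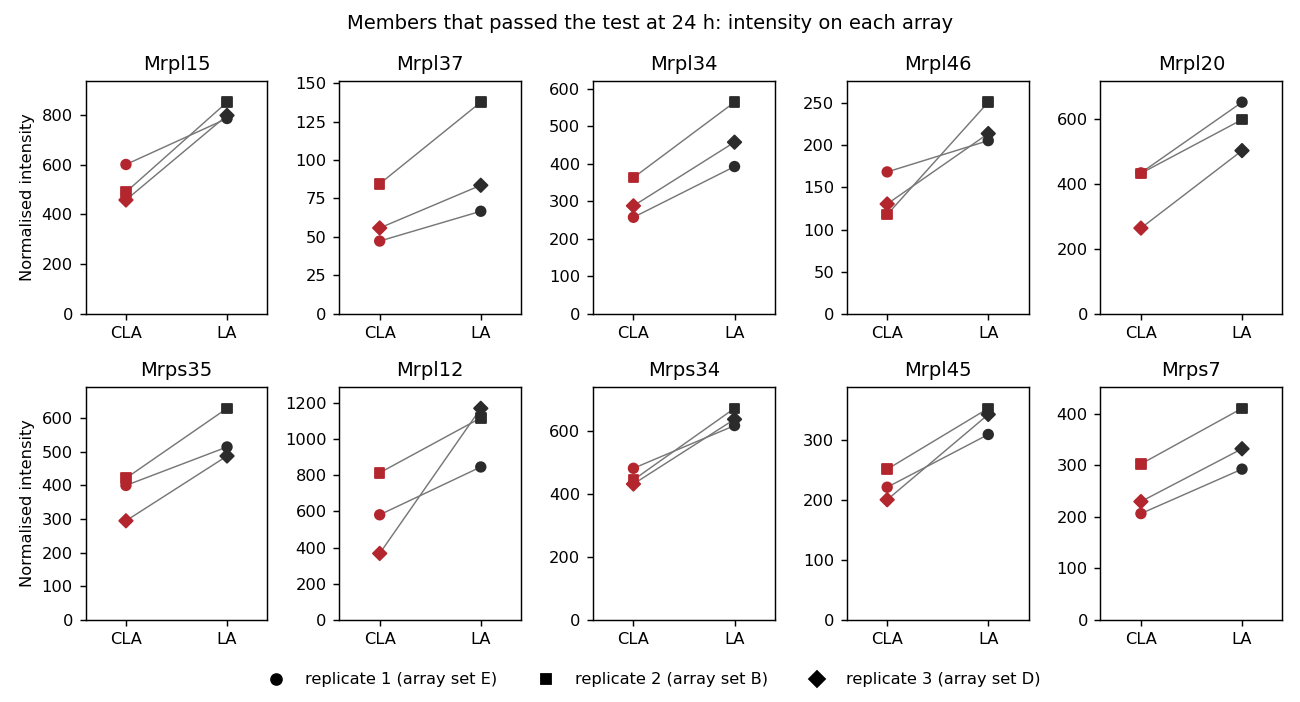
Normalised intensity (vertical axis from 0) of the 10 members that fell at 24 h on each of the 3 CLA and 3 LA arrays, with lines joining the arrays of the same replicate number and array set. Every line runs from a lower CLA to a higher LA value.

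All 3 pairs of arrays at 24 h gave a like median for the members, -0.28 in set B, -0.27 in set D and -0.22 in set E, with that of all genes at 0 in each. The CLA array was lower for 66, 63 and 65 of the 76 genes in these sets, and for 53 it was lower in all 3 (69.7%, against 21.8% of all genes). In 17 genes all CLA arrays lay below all LA arrays (22.4%, against 7.05% of all genes), and in 1 they all lay above (5.22% of all genes). The count of 10 was 0 on the values as deposited (0.561% of all genes were lower) and 5 with arrays centred on their medians (2.59% of all genes). It lay between 1 and 11 when 1 array was left out. It was 1 without CLA 24 h replicate 2 or 3, 2 without LA 24 h replicate 2 or 3, and 4 without LA 24 h replicate 1.

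With the array sets in the fit, the medians of the large and small subunits lay close to each other. The median difference of the large subunit was 0.01, -0.25, -0.11 and -0.28 over the 4 times, and that of the small subunit 0.03, -0.23, -0.09 and -0.26. The large subunit median minus the small one was thus -0.03, -0.01, -0.02 and -0.01 at these times, beside a spread of 0.0649 (SD) between replicate arrays in the large mean minus the small mean. Without the sets it was -0.14 at 4 h and 0.011 at 8 h, and no test of a difference between the subunits was run. The share that fell at 24 h was 14.9% in the large and 10.3% in the small subunit, and the share below 0 was 87.2% and 86.2%. Mrps30 and Mrps18a sit in the large subunit of mammalian mitochondrial ribosomes despite their symbols. Counting them there gave 24 h medians of -0.26 for 49 large and -0.27 for 27 small subunit genes, so the order of the 2 subunits turned at this size.

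Of the other large subunit proteins at working sites named here, 0 passed the test at 24 h. Mrpl10, which holds the Mrpl12 stalk, had a 24 h difference of -0.32 ± 0.13 (adjusted p = 0.212), and Mrpl11, at the base of the stalk, -0.19 ± 0.10 (adjusted p = 0.337). Mrpl3, near the peptide-bond centre, was at -0.20 ± 0.10 (adjusted p = 0.325). Mrpl23, beside the exit of the tunnel, was at 0.02 ± 0.14 (adjusted p = 0.975), within 1 standard error of 0. Mrpl44, related to double-strand RNA nucleases, was at -0.39 ± 0.15 (adjusted p = 0.164), and Mrpl41 at -0.40 ± 0.13 (adjusted p = 0.0923). Mrpl18 had a 24 h difference of -0.49 ± 0.17 (adjusted p = 0.123) after falling at 8 and 12 h.

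Among the other fixed members with an Mrps symbol, most were below 0 without passing the test. Mrps2 stood at -0.42 ± 0.12 (adjusted p = 0.0651) and Mrps16 at -0.32 ± 0.12 (adjusted p = 0.174) at 24 h; both have bacterial counterparts. Mrps12 stood at -0.19 ± 0.15 (adjusted p = 0.604) at 24 h, and Mrps5 at -0.27 ± 0.18 (adjusted p = 0.512). Mrps22, found only in mitochondria, was at 0.20 ± 0.12 (adjusted p = 0.397) at 12 h and -0.02 ± 0.13 (adjusted p = 0.981) at 24 h. Mrps30 was at -0.24 ± 0.12 (adjusted p = 0.301) at 24 h. Of the 3 mammalian relatives of bacterial S18, Mrps18b at 0.02 ± 0.13 (adjusted p = 0.978) and Mrps18c at 0.02 ± 0.16 (adjusted p = 0.98) lay within 1 standard error of 0 at 24 h. Mrps18a was at -0.17 ± 0.12 (adjusted p = 0.572). Mrps18b had its largest difference at 12 h, 0.35 ± 0.11 (adjusted p = 0.0846).

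A few members lay on the other side of 0. Mrpl52, specific to mitochondrial ribosomes, had intensities of 990.7, 867.9 and 855.7 on the CLA arrays and 828.7, 554.8 and 591.8 on the LA arrays at 24 h. All CLA arrays lay above all LA arrays, and the difference was 0.48 ± 0.14 (adjusted p = 0.069), so it did not pass the test. Mrps6, a counterpart of bacterial S6, had intensities of 2568, 1951 and 2290 on the CLA arrays and 2114, 1483 and 1894 on the LA arrays. These groups overlapped, each pair had CLA higher, and the difference was 0.32 ± 0.10 (adjusted p = 0.0957). Mrpl35 was at 0.24 ± 0.13 (adjusted p = 0.359) and Mrps17 at 0.09 ± 0.10 (adjusted p = 0.752) at 24 h, and Mrpl24 at 0.21 ± 0.10 (adjusted p = 0.254) at 12 h. Differences were above 0 at 8, 12 and 24 h for Mrpl38, Mrps18b and Mrps6 (3.95% of members, against 23.3% of all genes), and below 0 at these times for 52 of 76 (68.4%, against 24.5% of all genes).

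**Figure D4:**
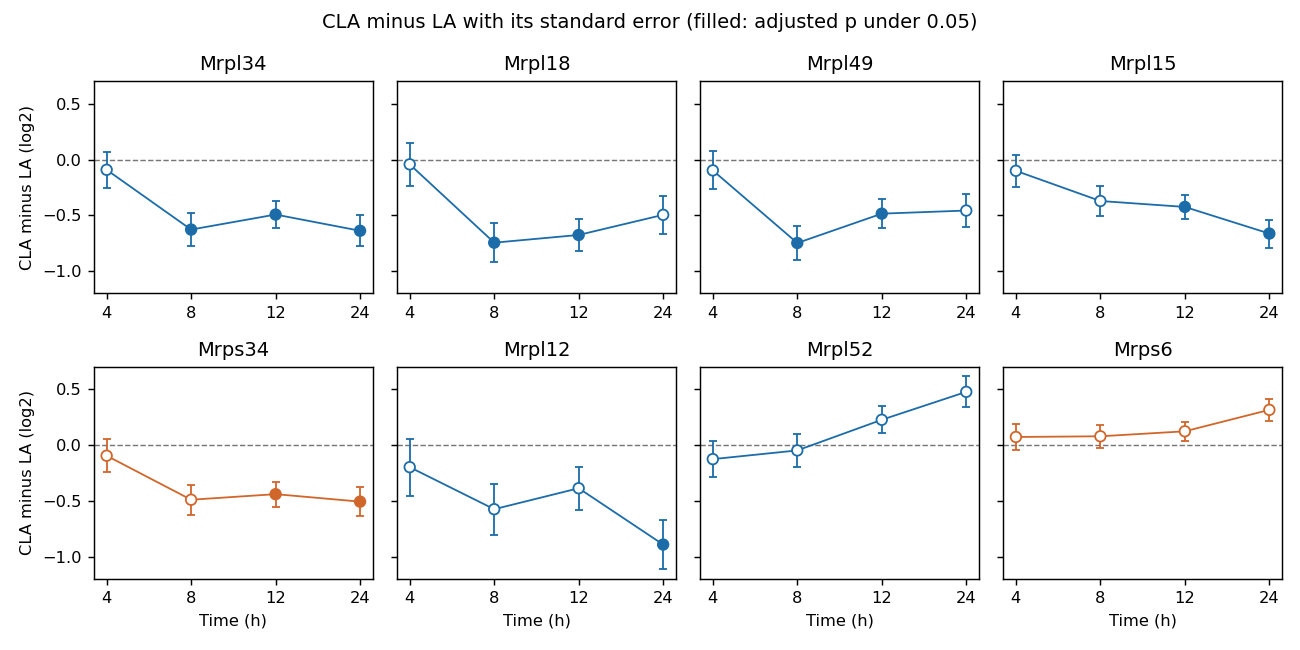
Difference between CLA and LA (log2, vertical axis) with its standard error at 4, 8, 12 and 24 h for 8 members, filled where the adjusted p was under 0.05. Mrpl34 is filled at 8, 12 and 24 h, while Mrpl52 and Mrps6 lie above 0 at 24 h without passing the test.

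Whether the CLA effect itself changed with time was tested directly. The moderated F-test over the 4 times called 0 members (0.0139% of all genes were called), and 8 members had an unadjusted p under 0.05 (10.5%, against 9.27% of all genes). The effect at 24 h minus that at 4 h was called for 0 members (0.146% of all genes), with 19 at an unadjusted p under 0.05 (25%, against 12.6% of all genes), and that at 24 h minus 12 h for 0 members (0% of all genes), with 2 at an unadjusted p under 0.05 (4.51% of all genes). Mrpl18, called at 8 and 12 h and not at 24 h, is therefore not shown to differ between these times. For a change with time in the LA arrays the F-test called 0 members (0% of all genes). In it 2 members had an unadjusted p under 0.05 (8.85% of all genes), and 0 without the sets (3.36% of all genes). Sets and times were unevenly mixed, since set A held arrays of 4 and 8 h alone and set E arrays of 12 and 24 h alone. A change with time that runs along with the sets cannot be seen in the fit with sets.

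Other parts of the mitochondrial translation apparatus were measured from lists. Each count at 24 h stands against 3.72% of all genes that fell, 0.88% that rose and 48.9% below 0, with a median of 0.01. Of 13 translation factors tested, 2 fell at 24 h and 11 lay below 0 (median -0.26). Tufm, the elongation factor that brings transfer RNAs to the ribosome, fell by 0.58 (adjusted p = 0.0214), and Mtif3, an initiation factor, fell by 0.78 (adjusted p = 0.0291). Of the 24 assembly and rRNA modification genes tested 0 passed at 24 h (median -0.16, 18 below 0, 6 with an unadjusted p under 0.05 on the lower side and 0 on the higher), and 1 fell at 12 h, Mettl15, a methyltransferase of the small subunit RNA, at -0.44 (adjusted p = 0.0429), named after its values were seen. Another list held Dap3, Chchd1, Ptcd3 and Gadd45gip1, proteins of the mitochondrial ribosome under other symbols, and Oxa1l, the membrane insertase that the ribosome docks to. These 5 genes lay between -0.32 and -0.18 at 24 h with 0 calls and 1 unadjusted p under 0.05.

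Among 6 genes of mitochondrial DNA transcription, Mterf2, of the transcription termination factor family, fell at 8, 12 and 24 h (-0.95, -0.85 and -0.91, adjusted p = 0.0167, 0.00747 and 0.00812). The others did not pass, among them Tfam, which packages mitochondrial DNA, at -0.09 (adjusted p = 0.846) and Polrmt, the RNA polymerase, at -0.06 (adjusted p = 0.92) at 24 h. Of 10 nuclear regulators tested, 1 rose at 24 h, Pprc1, a coactivator of the PGC-1 family, by 0.76 (adjusted p = 0.0173). Of the same 10, 2 rose at 8 h (1.25% of all genes) and 0 fell (0.561% of all genes). At 12 h 2 rose (2.29% of all genes) and 1 fell (2.4% of all genes). The 1 that fell at 12 h was Ppargc1b, another coactivator of that family, by 1.25 (adjusted p = 0.00823). Among the 2 that rose at 12 h was Myc, a growth regulator, by 0.95 (adjusted p = 0.00695). Both Ppargc1b and Myc were named after their values were seen. Gabpa, Nrf1 and Yy1, whose proteins read the promoter letters above, had 24 h differences of -0.01, -0.24 and 0.06 and did not pass.

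Of the respiratory chain and ATP synthase genes tested, 41 of 85 fell at 24 h (3.72% of all genes) and 0 rose (0.88% of all genes), with a median of -0.48. The list was drawn from symbols of nuclear genes, so it holds no product of the mitochondrial ribosome itself. Examples were Uqcrfs1 of complex III at -1.08 (adjusted p = 0.000791), Ndufs3 of complex I at -0.77 (adjusted p = 0.00203) and Sdhb of complex II at -1.06 (adjusted p = 0.00203). Cox7a1 of complex IV was at -2.45 (adjusted p = 0.00242) and Ndufb8 of complex I at -0.76 (adjusted p = 0.00481). Proteins of the cytosolic ribosome lay on the other side, with 0 of 42 called, 2 at an unadjusted p under 0.05 on the higher side, 2 below 0 and a median of 0.11 at 24 h. In the fit without array sets 0 genes of any of these lists passed.

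**Figure D5:**
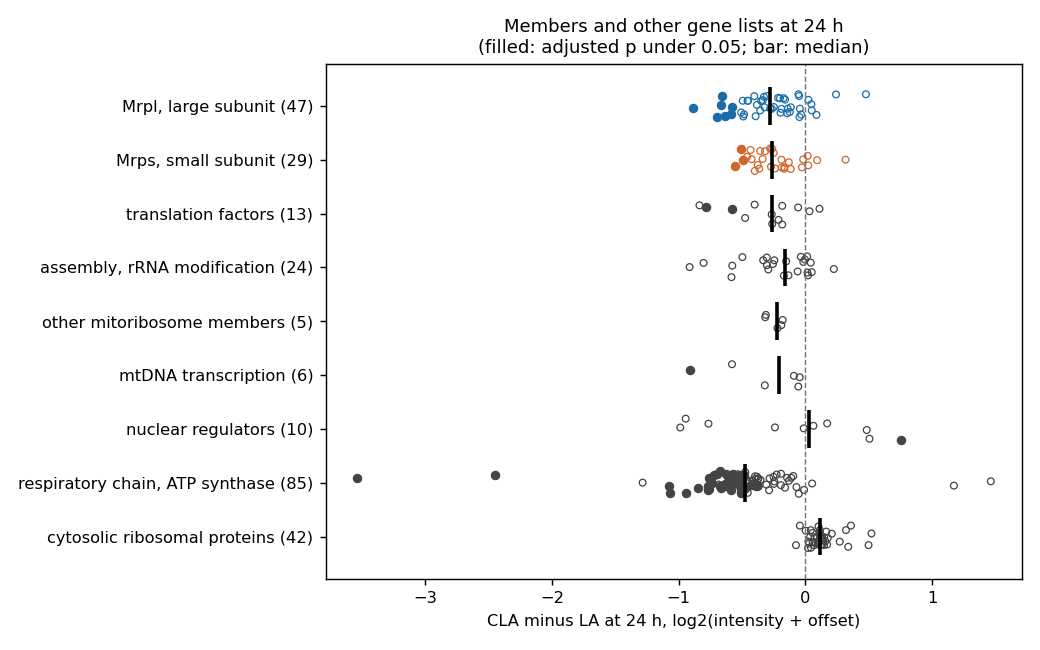
Difference between CLA and LA at 24 h (log2, horizontal axis) for the members of each subunit and of 7 other lists, with numbers of genes in brackets, filled where the adjusted p was under 0.05 and bars at the medians. Medians run from -0.48 for the respiratory chain to 0.11 for cytosolic ribosomal proteins, with both subunits between them.

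Markers of the fat cell moved beside the members. At 24 h 6 of 8 adipocyte markers measured fell (3.72% of all genes did) and 0 of 8 rose (0.88% of all genes), with a median of -1.08. Among those that fell were Slc2a4, the insulin-responsive glucose transporter, at -2.55 (adjusted p = 0.000478) and Pparg, the nuclear receptor of adipocyte differentiation, at -0.88 (adjusted p = 0.00723). The summed intensity of the 8 markers was 16550 to 26010 on the CLA arrays and 27670 to 35350 on the LA arrays at 24 h. Of 7 fibroblast and preadipocyte markers 0 passed (2 at an unadjusted p under 0.05), all 7 lay above 0 (median 0.33), and their sum was 20590 to 28290 under CLA and 19280 to 25520 under LA. The 6 macrophage markers summed to 135 to 204.3 under CLA and 91.34 to 142.3 under LA, with Aif1, Itgam and Ptprc below the array median on all arrays of both groups. The 4 endothelial markers were below the array median on every 24 h array, and the 4 skeletal muscle markers summed to 7.931 to 22.32 under CLA and 8.843 to 22.49 under LA. The part of this marker shift in the members' values was not tested. Actin ratios of the 24 h pairs were close, from 1.536 to 3.27 on the CLA arrays and from 1.607 to 3.32 on the LA arrays.

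Several probe sets were present for 42 of the 76 genes, up to 8 for 1 gene. Of 72 further probe sets kept by the filter, 58 were below 0 at 24 h, and 0 genes had probe sets that passed with opposite signs. Tested as 148 single probe sets, 10 probe sets of 6 genes fell at 24 h (2.25% of all probe sets did). Mrpl11 and Mrps5 changed sign at 24 h, to 0.26 and 0.37, when the mean over their probe sets was used. Each had a dim probe set at 1.69 and 2.42, with mean intensities of 4.539 and 5.349.

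The authors' deposited tables hold 1 ratio per probe set and time, whose direction was worked out from the values and read as CLA over LA. In the authors' deposited table the ratio was below 1 for 42, 69, 64 and 73 of the 76 genes at 4, 8, 12 and 24 h, and for 50.4%, 51.9%, 51.6% and 49.7% of all genes. The authors' deposited p was under 0.05 with a ratio below 1 for 0, 26, 7 and 18 members (0.381%, 3.67%, 2.31% and 3.75% of all genes), and with a ratio above 1 for 1 member at 24 h (1.66% of all genes), Mrpl52 with a ratio of 1.314. Of the 10 members that fell at 24 h, all 10 had a ratio below 1 in the authors' deposited table and 8 had a p under 0.05 there, the exceptions being Mrpl37 and Mrps7. Of the 5 that fell at 12 h, all 5 had a ratio below 1 in the authors' deposited table and 3 had a p under 0.05, the exceptions being Mrpl34 (p = 0.147) and Mrps34 (p = 0.0608). The 3 that fell at 8 h all had a p under 0.05 in the authors' deposited table. The authors' p was used as deposited, without the adjustment over all genes that the calls made here carry. Both analyses rest on the same arrays.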

How the data were processed

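RNA from 3T3-L1 adipocytes was extracted, labelled with biotin and put on Affymetrix arrays of 1 colour, per the labels' protocols. The authors deposited 1 linear intensity per probe set and array; how probes were summarised is not given in the sources used here. Values above 0 made up 72.43% to 80.71% of an array. The authors also deposited, per time, a ratio and fold change, its log10 with an error, and a p-value per probe set, in which the arrays of a group are combined. Platform annotation gave 1 symbol to 34958 probe sets, several to 932 and none to 9211.

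Here negative values were set to 0, 0.984 (percentile 25 of all values) was added as the offset, and the log2 values were brought to common quantiles. Each gene is the probe set with the highest mean, and stayed in the tests if 2 or more arrays had it over their own median. Such an offset stretches differences of dim genes. Array sets came from Ward clustering. limma 3.58.1 in R 4.3.3 (lmFit, eBayes, Benjamini-Hochberg adjustment over all genes) fitted 8 group means and the array set to all 25 arrays, after a test on simulated data. Since the sets were built from the same values, counts without them are given beside the results. The p-values and standard errors measure the spread left between these arrays after the group and set terms. For the members the median standard error at 24 h was 0.139 with the sets and 0.297 without them. Same-numbered CLA and LA arrays deviated together at 12 h (r across genes 0.16 to 0.56) and 24 h (0.265 to 0.339), where each pair lies in 1 set, but not in every pair at 4 h (-0.245 and 0.328) or 8 h (0.0673 to 0.312). No 2 arrays were identical (highest correlation 0.9464).

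The members, lists, array sets and tests were chosen with earlier results of these data known. Named were 18 fixed members, at each time up to 5 members per subunit and direction with the smallest p past the threshold, the 2 members per subunit lying farthest against the median at 12 and 24 h, and of each other list up to 5 past the threshold at 24 h. Alternatives were another offset, normalization, filter, probe set rule, covariates, array weights and arrays left out.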

Additional observations from a re-analysis of the deposited data

Results flagged for a closer look

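The named members' 12 h groups of 4 arrays were searched for 1 array far from the other 3, in 64 groups, and 2 were found, where chance flags about 1 in 20. Mrps5 under CLA at 12 h had an intensity of 182 on replicate 4, against 108 and less (down to 102) on the other CLA arrays. Replicate 4 is in the dim array set C, whose LA array at 12 h was also high for this gene, at 199.4. Mrpl49 under LA at 12 h had an intensity of 367 on replicate 2, of set B, against 244 to 261 on the other LA arrays. Without LA 12 h replicate 2 its 12 h difference was -0.42 (limma adjusted p = 0.16), against -0.48 with all arrays, and it was also not called without LA 12 h replicate 3 (-0.49, adjusted p = 0.0985) or 4 (-0.48, adjusted p = 0.117), or without CLA 12 h replicate 2 (-0.39), 3 (-0.50) or 4 (-0.47).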

How the results depend on the processing

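The number of members called depended on how the array sets were handled and on the normalization. At 8, 12 and 24 h it was 0, 0 and 0 without the array sets, with the replicate block, with pairs of the same time and replicate number as a block, and on the values as deposited. It was 1, 3 and 6 with the array set as a random block, 0, 0 and 5 with arrays centred on their medians, 0, 2 and 6 with the mean of a gene's probe sets, and 0, 0 and 6 without the 5 arrays of set C. It was 17, 10 and 22 with the larger offset (57.7), 7, 7 and 16 with the stricter filter, 8, 8 and 20 with array weights, and 2, 5 and 10 without a filter, against 3, 5 and 10 as reported. Calls among all genes moved too, with 2.28%, 4.23% and 5.54% lower under the larger offset, 1.68%, 4.47% and 6.33% with the stricter filter and 1.57%, 3.17% and 5.89% with array weights, against 0.561%, 2.4% and 3.72% as reported. With the random block 0.312%, 1.48% and 2.21% were lower at 8, 12 and 24 h, and with arrays centred 0.125%, 1.02% and 2.59%. The mean of probe sets gave 0.24%, 1.76% and 2.89%, and the fit without set C 0.159%, 0.34% and 3.3%. Without a filter the shares were 0.33%, 1.74% and 2.78%. They were 0.0139%, 0.236% and 0.561% on the values as deposited and 0%, 0.0208% and 0.146% with the pair block. Of the members called, 1 at 12 h and 2 at 24 h under the larger offset, 2 at 24 h with array weights and 1 at 24 h with the stricter filter were on the higher side. Testing every probe set by itself gave 2, 2 and 10 probe sets that fell, of 2, 2 and 6 genes. Of all probe sets 0.151%, 1.27% and 2.25% fell. The pair block, the random block and the fit without the 2 arrays of highest actin ratio (4, 5 and 11) were added after seeing the data. In this last fit 1 of the 11 calls at 24 h was on the higher side. Of all genes 0.721%, 3.15% and 3.81% were lower in it at 8, 12 and 24 h. At 4 h 0 members were called in each of these settings, and the tests for a change of the effect with time and for a change within LA called 0 members in every setting in which they were run.

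Leaving out 1 array gave 0 to 4 calls at 8 h, 0 to 6 at 12 h, 1 to 11 at 24 h and 0 at 4 h. Here and at the single times above, these counts stand without the shares of all genes called in the same fits. A loss particular to the members can therefore not be read from them. At 8 h the count of members was 0 without LA replicate 3 or CLA replicate 1, 2 or 3, and 1 without LA replicate 1 or 2. At 12 h it was 0 without replicate 2 of either group, LA replicate 4 or CLA replicate 3, and 1 without LA replicate 3 or CLA replicate 4. Arrays of other times moved it to 1 at 8 h (LA 4 h replicate 2, LA and CLA 12 h replicate 3, CLA 12 h replicate 4, LA 24 h replicates 1 to 3, CLA 24 h replicates 2 and 3), and to 2 or 3 at 12 h (CLA 8 h replicate 3, LA 24 h replicates 1 to 3, CLA 24 h replicate 3).

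Moves of the members' median were judged by the spread of 0.15 between replicate arrays, taken without the array sets. The median moved by more than this only at 8 and 4 h. The 8 h median moved to -0.41 without the array sets, with the replicate block and with the pair block, and to 0.0074 on the values as deposited. The 4 h median moved to 0.24 with arrays centred on their medians, where all genes moved by 0.21. The 12 h median of -0.10 is itself smaller than this spread, so a 12 h median of 0 would still count as unmoved. Leaving out 1 array gave -0.02 to 0.06 at 4 h, -0.30 to -0.20 at 8 h, -0.16 to -0.08 at 12 h and -0.30 to -0.25 at 24 h. The large minus small subunit median turned to 0.03 at 8 h and 0.01 at 24 h with Mrps30 and Mrps18a counted as large. Its other settings were added after seeing the data. It moved by more than its spread of 0.0649 to -0.141 without the array sets and -0.165 with the pair block at 4 h, and at 8 h to 0.0629 with the mean of probe sets, 0.0669 without set C, 0.0519 with array weights and 0.0805 without LA 8 h replicate 3. Leaving out 1 array gave -0.0567 to 0.0223 at 4 h, -0.0641 to 0.0805 at 8 h, -0.0528 to -0.00656 at 12 h and -0.066 to -0.0116 at 24 h. No call of a named member changed sign. Among fixed members that were not called, the 24 h difference turned for Mrpl11 (0.26) and Mrps5 (0.37) with the mean of probe sets, for Mrpl23 (-0.061), Mrps18b (-0.069) and Mrps18c (-0.12) with arrays centred, and for Mrps18c (-0.030) on the values as deposited. Over single arrays left out it ran from -0.083 to 0.082 for Mrpl23, -0.12 to 0.041 for Mrps22, -0.047 to 0.074 for Mrps18b and -0.045 to 0.094 for Mrps18c. It kept its sign but moved by over 1.5 times for Mrps5 (-0.461 to -0.0964), Mrps12 (-0.277 to -0.111), Mrps18a (-0.214 to -0.0882), Mrps30 (-0.315 to -0.156) and Mrpl10 (-0.387 to -0.21). The cause of these changes was not tested. The number of arrays limits the precision.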
